A study of Mus musculus with 292 samples.

Results

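The proteasome genes of the mouse were followed through the day in 4 tissues. They were chosen by name: every gene whose symbol starts with Psma, Psmb, Psmc, Psmd, Psme, Psmf or Psmg and a number, pseudogenes left out, with a mean of at least 1 CPM (a gene's count scaled to the total count of its library, as counts per 1000000) in the tissue. Of 48795 gene identifiers, 48349 had a symbol and 50 matched the name rule beside 4 pseudogenes. Of these, 48 passed the level in at least 1 tissue: 48 in each of the 3 brain tissues and 47 in liver. Psma8, an alpha subunit known from testis, and Psmb11, a beta subunit known from thymus, stayed under 1 CPM in every tissue. Psmc3ip carries a Psmc symbol but encodes a partner of meiotic recombinases and no subunit, and it was under 1 CPM in liver.

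The proteasome is the protease that degrades proteins tagged with ubiquitin. Its 20S core is a barrel of alpha rings, which gate the entrance, and beta rings, of which Psmb5, Psmb6 and Psmb7 carry the active sites. In immune cells, and under interferon, these are replaced by Psmb8, Psmb9 and Psmb10 of the immunoproteasome, which makes peptides for display on MHC class I. The 19S particle caps the core, with an ATPase ring (Psmc1 to Psmc6) that unfolds substrates, further base subunits that bind ubiquitin or its shuttles, and a lid around Psmd14, the enzyme that removes ubiquitin chains. Psme1 and Psme2 form the activator PA28 of the cytosol, Psme3 its nuclear relative and Psme4 the activator PA200. Psmg1 to Psmg4, Psmd5, Psmd9 and Psmd10 are assembly chaperones, and Psmf1 encodes PI31, described as an inhibitor of the core.

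The libraries were mRNA-seq of wild-type male mice of the strain C57BL/6J, aged 26 weeks, with no treatment or transgene in the labels. Tissue was taken at intervals of 3 h through 36 h, given as Zeitgeber time (ZT, hours of the light-dark cycle), so that ZT0 to ZT12 came from both cycles and ZT15, ZT18 and ZT21 from the first alone. There were 78 libraries of cortex and 60 of striatum, both from the right hemisphere, 77 of hypothalamus and 77 of liver, of which 76 were used. Each library carried a mouse code of its own within a tissue, and 58 of 79 mice gave all 4 tissues.

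Library totals ran from 28.3 to 40.5 M counts (M, 1000000) in cortex, 29.2 to 50.01 M in hypothalamus, 11.7 to 43.4 M in striatum and 11.7 to 41.9 M in liver. The ZT groups held 6 to 12 libraries except liver ZT18, with 5 used, and striatum ZT15 and ZT18, with 2 and 4. Some libraries went against their tissue's markers. In cortex, ZT0 replicate 1 and ZT9 replicate 9 nearly lacked markers of cortical excitatory neurons, with a lowest summed level of 10.7 CPM against a median of 1412. In hypothalamus, ZT0 replicate 9 and ZT9 replicate 9 held pituitary markers, up to 38863 CPM against a median of 60.7. In striatum, ZT21 replicate 3 held cerebellar markers at 2820 CPM. Liver ZT18 replicate 4 was left out of all values, and counts without the other libraries stand beside the results.

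Per length, on the FPKM scale (reads scaled for gene length and depth), the ATPase genes and the beta genes outside the active sites were the highest roles in every tissue by the median of their members, and the catalytic immunoproteasome genes Psmb8 and Psmb9 were low in the brain. In cortex the ATPase genes ran from a mean of 18.5 FPKM for Psmc2 to 95.8 for Psmc5, the alpha ring from 7.89 for Psma5 to 59.5 for Psma2, and the beta ring outside the active sites from 6.31 for Psmb3 to 92.1 for Psmb1. In liver Psmb1 was again the highest of that role, at 116 FPKM, and the lid ran from 12.5 for Psmd11 to 34.9 for Psmd8. Psmc2, Psmd1, Psmd11, Psma5 and Psmb3 were the lowest of their roles in all 4 tissues. The immunoproteasome share was set per library as the FPKM of the immune gene over its sum with the gene it replaces. Its size rests on the gene lengths behind the FPKM, which differ within pairs. They were 2736 bases for Psmb8 and 871 for Psmb5, and 3659 for Psmb9 and 1872 for Psmb6. For Psmb10 and Psmb7 they were 1705 and 3421. The share can thus be compared between tissues within a pair, but not between pairs. For Psmb8 with Psmb5 the share averaged 16.9% ± 2.42 (SD, n = 76) in liver, against 4.69% ± 1.40 (n = 77) in hypothalamus, 3.94% ± 0.94 (n = 60) in striatum and 2.7% ± 0.60 (n = 78) in cortex. The lowest liver library, at 11.8%, lay above the highest brain library, at 9.53% in hypothalamus. For Psmb9 with Psmb6 the means were 1.11%, 1.08% and 1.16% in cortex, striatum and hypothalamus against 6.57% ± 1.69 in liver, and here a liver library at 2.90% lay below a hypothalamic one at 3.00%. Psmb10 with Psmb7 did not follow the other pairs: its share was 32.2% in liver and 35.1%, 28.7% and 32.04% in cortex, striatum and hypothalamus. In whole tissue, fewer cells of a type and less RNA per cell cannot be told apart.

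**Figure D1:**
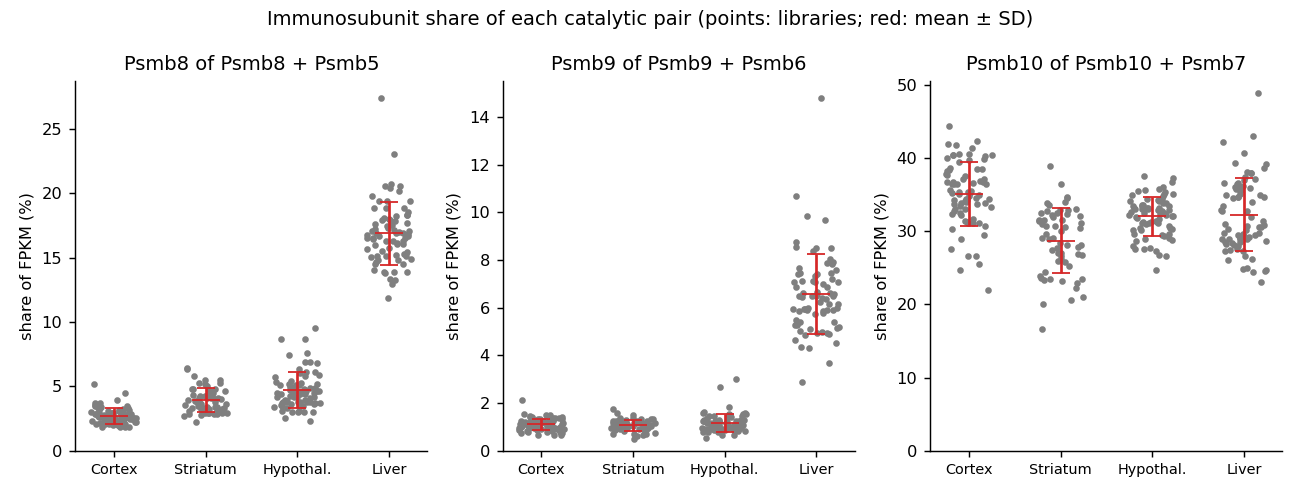
Share of the immune gene in its pair (percent of summed FPKM) for each library in the 4 tissues, with the mean and SD of each tissue. The Psmb8 share averaged 16.9% in liver and 2.7% in cortex, whereas the Psmb10 share lay between 28.7% and 35.1% in every tissue.

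The first question was which proteasome genes followed the 24 h day. In liver 37 of 47 did (78.7%), where 74.8% of all genes tested were called, so the share of called members lay near that of the whole transcriptome. A gene was called when edgeR's quasi-likelihood test of a 24 h cosine gave a Benjamini-Hochberg adjusted p under 0.05 over all genes. The amplitudes were small. The fitted peak was at least 25% above the trough in 8 of 47 (17.02%), against 52.4% of all genes, and the median ratio was 1.14 against 1.30 over all genes tested. Of the called genes, 14 peaked between ZT0 and ZT6, 16 between ZT6 and ZT12, 4 between ZT12 and ZT18 and 3 between ZT18 and ZT24. Peak times of all genes are not given here, in this tissue or the others. With ZT18 replicate 4 kept, 36 were called, and without ZT6 replicate 7, the liver library of lowest length slope (a measure described with the 20S sums), 40.

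**Figure D2:**
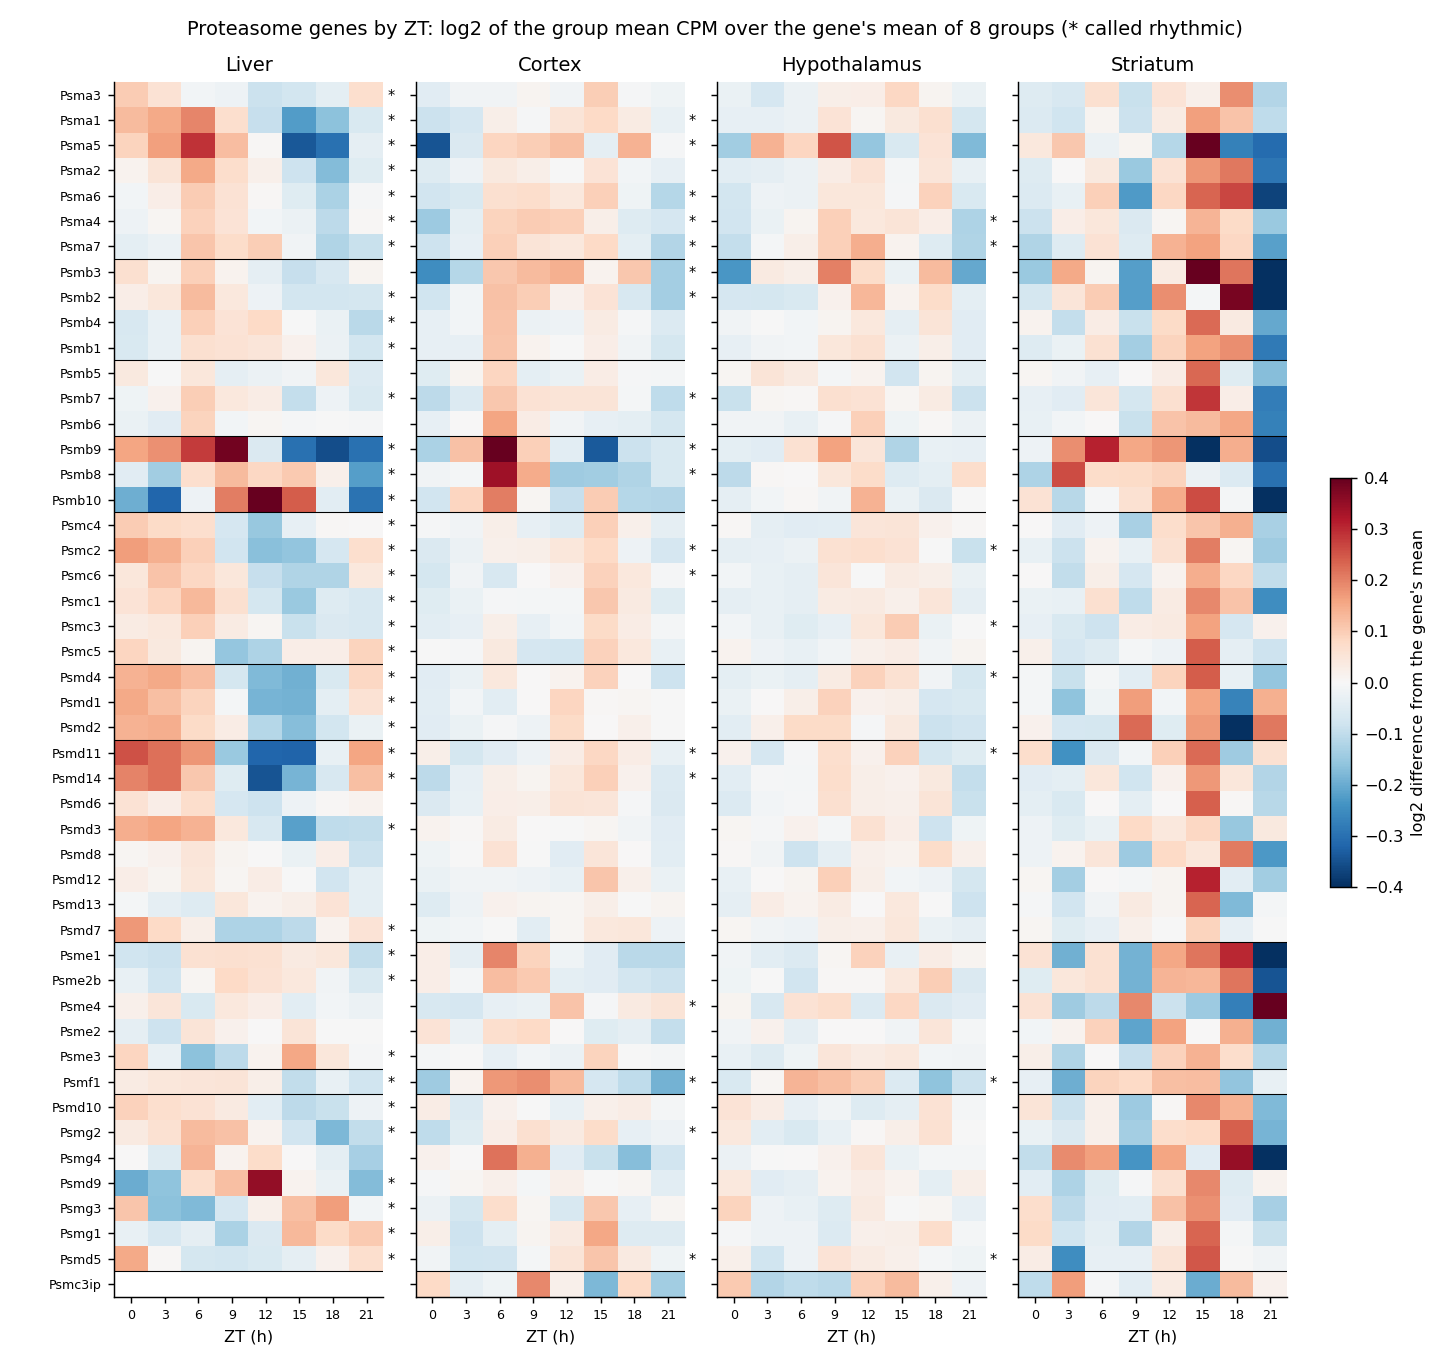
Mean level of each proteasome gene by ZT group in 4 tissues, as the log2 ratio of the group's mean CPM to the mean of the gene's 8 groups, ordered by role, with stars on genes called for a 24 h rhythm. In liver the 19S genes are mostly above their mean from ZT21 to ZT6, and stars stand on 37 genes in liver, 18 in cortex, 8 in hypothalamus and 0 in striatum.

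The 19S genes of the liver peaked mostly between ZT21 and ZT6. All 6 ATPase genes and all 3 further base genes were called, with mean peaks at ZT2.94 and ZT2.37, and 4 of 8 lid genes, with a mean peak at ZT1.75. Together 13 of the 17 genes of the particle were called (76.5%, against 74.8% of all genes), 12 of them with a peak between ZT21 and ZT6. The share of all called genes with a peak in this window is not given here, so the 12 have no background beside them. The highest amplitudes were in the lid, for Psmd11 (ENSMUSG00000017428, a scaffold subunit of the lid) and Psmd14 (ENSMUSG00000026914, the deubiquitinase). Psmd11 lay at 84.1, 93.7 and 102 CPM (lowest, median and highest of 12 libraries) at ZT0 and at 57.3, 62.1 and 66.6 CPM (of 6) at ZT15. Every ZT0 library was above every ZT15 library, and the fitted ratio was 1.48 (log2 0.57 ± 0.04 SE, n = 76, peak ZT1.45, adjusted p = 3.81e-20). Psmd14 lay at 49.6, 54.9 and 59.1 CPM at ZT3 and at 33.2, 36.4 and 40.7 CPM at ZT12, of 12 libraries each. These groups did not overlap either, and the ratio was 1.39 (log2 0.47 ± 0.04, peak ZT1.55, adjusted p = 3.91e-18).

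The promoters of these lid genes are shown because their mRNAs moved together in liver, and a window of Psmf1 because its mRNA was called in 3 tissues. They are 250 bases before the RefSeq start in GRCm38.p6, 5′ to 3′ on the gene's strand, with capitals for letters that match a searched motif: ATTGG in Psmd14, the CCAAT box on the reverse strand, 159 bases before the start, and GAANNTTC, a heat shock element pair, in Psmf1, 70 bases before it. Psmd11 held none of the motifs searched.
Psmd14, chr2:61711444-61711693, plus strand: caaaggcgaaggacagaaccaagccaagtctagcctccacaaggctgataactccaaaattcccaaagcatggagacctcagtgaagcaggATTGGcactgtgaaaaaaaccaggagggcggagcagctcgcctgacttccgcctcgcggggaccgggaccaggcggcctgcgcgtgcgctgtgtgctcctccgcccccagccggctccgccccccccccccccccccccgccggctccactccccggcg
Psmd11, chr11:80428365-80428614, plus strand: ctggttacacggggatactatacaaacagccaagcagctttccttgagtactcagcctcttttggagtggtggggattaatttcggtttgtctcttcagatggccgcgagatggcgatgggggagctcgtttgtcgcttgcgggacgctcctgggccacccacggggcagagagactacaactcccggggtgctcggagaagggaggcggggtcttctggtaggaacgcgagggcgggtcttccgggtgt
Psmf1, chr2:151741311-151741560, minus strand: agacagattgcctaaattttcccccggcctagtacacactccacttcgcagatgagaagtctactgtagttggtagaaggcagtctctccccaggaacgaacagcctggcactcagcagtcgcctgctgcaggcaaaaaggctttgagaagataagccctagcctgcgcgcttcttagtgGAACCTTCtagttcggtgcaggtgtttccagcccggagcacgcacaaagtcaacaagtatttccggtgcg
None of the 3 windows overlaps an exon of the annotation. The RefSeq start of Psmf1 lies 2876 bases inside the annotated gene, so its window is within the span of the gene.

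The other called 19S genes had peaks less than 25% above their troughs. Psmc2, an ATPase subunit, lay at 91.0, 96.3 and 103 CPM at ZT0 and at 69.2, 75.9 and 84.0 CPM at ZT12. The ranges were apart, with a ratio of 1.24 (peak ZT1.77, adjusted p = 4.69e-12). Psmd4, a ubiquitin receptor of the base, and Psmd3, a lid subunit, had ratios of 1.2495 and 1.247, with peaks at ZT1.99 and ZT4.21. Psmd1 and Psmd2, the large scaffolds of the base, had ratios of 1.22 and 1.19, and Psmd7, the partner of Psmd14 in the lid, 1.18 with a peak at ZT23.9. The remaining ATPase genes ran from 1.10 for Psmc3, the 1 called gene of the particle with a peak after ZT6, at ZT6.62, to 1.17 for Psmc1. The lid genes Psmd6, Psmd8, Psmd12 and Psmd13 did not pass the test. Summed over the 17 genes, the particle lay at 1531 ± 40.3 CPM (SD, n = 12, range 1446 to 1583) at ZT0 and at 1313 ± 34.95 CPM (n = 6, 1265 to 1354) at ZT15, with no overlap.

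**Figure D3:**
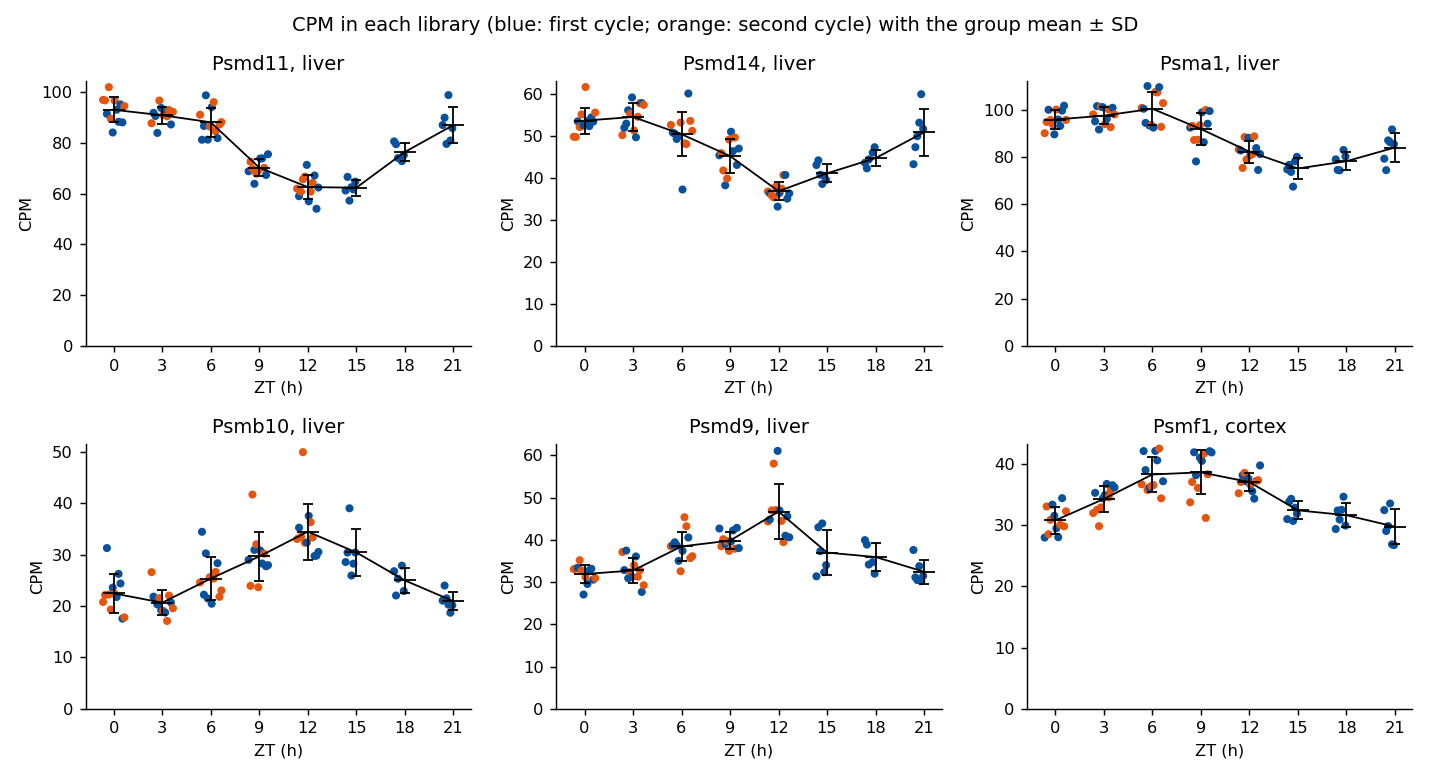
CPM of every library by ZT for Psmd11, Psmd14, Psma1, Psmb10 and Psmd9 in liver and Psmf1 in cortex, with first-cycle and second-cycle libraries in different colours and the mean and SD of each ZT group. Psmd11 and Psmd14 are high from ZT0 to ZT3 and low at ZT12 to ZT15, while Psmb10 and Psmd9 are high at ZT12.

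The 20S genes of the liver peaked mostly between ZT6 and ZT12. Of 14 core genes 11 were called (78.6%, against 74.8% of all genes), 8 with a peak between ZT6 and ZT12 and 3 between ZT21 and ZT6. Psma1 and Psma5, the core genes with a peak 25% or more above the trough, were among these 3. The share of all called genes in these windows is not given here. All 7 alpha genes were called, with a mean peak at ZT6.14, and 3 of 4 beta genes outside the active sites, with a mean peak at ZT8.92. Psma1, an alpha subunit, lay at 92.3, 101 and 109.9 CPM at ZT6 and at 67.4, 75.7 and 80.0 CPM at ZT15. The ranges were apart, and the ratio was 1.30 (log2 0.38 ± 0.03, peak ZT4.48, adjusted p = 1.5e-15). Psma5, the alpha gene with the lowest level, lay at 7.01, 8.21 and 15.0 CPM at ZT6 and at 4.65, 5.59 and 6.91 CPM at ZT15. Its groups did not overlap, with a ratio of 1.44 (log2 0.53 ± 0.08, peak ZT5.45, adjusted p = 2.03e-07). The other alpha genes ran from 1.09 for Psma3, with a peak at ZT0.369, to 1.19 for Psma2 at ZT6.78. Among the active-site genes Psmb7 was called, with a ratio of 1.12 at ZT7.94, whereas Psmb6 (adjusted p = 0.178) and Psmb5 (ratio 1.01, adjusted p = 0.966) were not. The core sum lay at 1066 ± 59.1 CPM (n = 12, 984 to 1152) at ZT6 and at 945 ± 25.5 CPM (n = 5, 900.4 to 964) at ZT18.

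**Figure D4:**
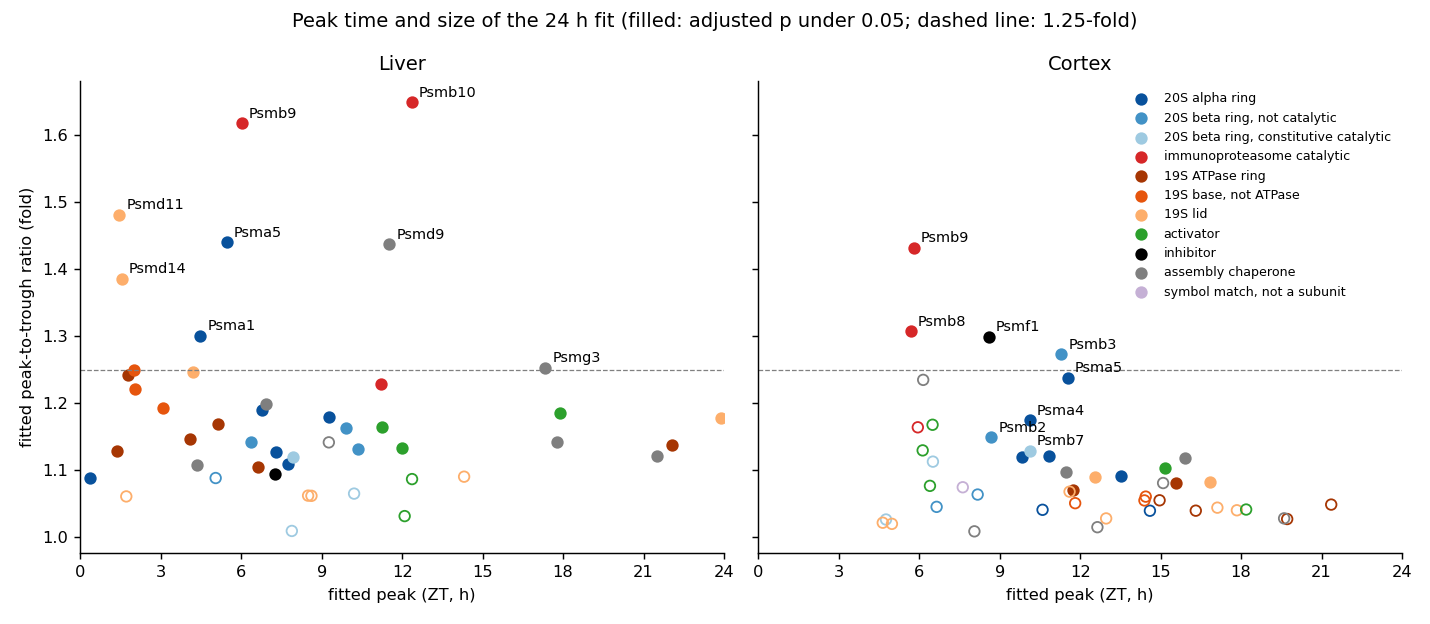
Fitted peak time (ZT, hours) against fitted peak-to-trough ratio for each proteasome gene in liver and cortex, coloured by role, with filled points for called genes and a dashed line where the peak is 25% above the trough. In liver 12 of the 13 called 19S genes peak between ZT21 and ZT6 and 8 of the 11 called 20S genes between ZT6 and ZT12. These windows differ in length, and no share of all genes in them is given here.

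Psmb10 and Psmb9 of the immunoproteasome had the largest ratios of the called members in liver and Psmb8 a smaller one, with peaks from ZT6.02 to ZT12.4. Psmb10, the trypsin-like immune subunit, lay at 29.8, 33.2 and 49.96 CPM at ZT12 and at 17.1, 20.5 and 26.6 CPM at ZT3. All ZT12 libraries were above all ZT3 libraries, with a ratio of 1.65 (log2 0.72 ± 0.06, peak ZT12.4, adjusted p = 3.69e-17). Psmb9, which replaces Psmb6, lay at 11.6, 15.0 and 35.1 CPM (of 11) at ZT9, and at 12.4, 7.85, 10.1, 9.59 and 10.6 CPM in the 5 libraries of ZT18. These ranges overlapped, and the ratio was 1.62 (log2 0.69 ± 0.11, peak ZT6.02, adjusted p = 9.52e-07). Psmb8, which replaces Psmb5, had a ratio of 1.23 (peak ZT11.2, adjusted p = 0.00224), and its highest and lowest groups overlapped. In the first cycle alone neither Psmb8 (adjusted p = 0.149) nor the activator gene Psme1 (0.197) was called in liver. The share of Psmb10 over its sum with Psmb7 moved from 27.5% ± 2.59 (n = 12, 23.1 to 32.9) at ZT3 to 38.4% ± 3.66 (n = 12, 35.1 to 48.9) at ZT12, with no overlap. That of Psmb9 over its sum with Psmb6 went from 4.95% ± 0.835 at ZT18 to 7.91% ± 2.47 at ZT9. The called activator genes peaked between ZT11.2 and ZT17.9: Psme1 had a ratio of 1.16 (ZT11.2, adjusted p = 0.00401), Psme2b 1.13 (ZT12.0) and Psme3 1.19 (ZT17.9, adjusted p = 1.44e-06), while Psme2 (adjusted p = 0.0698) and Psme4 (adjusted p = 0.731) did not pass. Psme2b is a near-identical copy of Psme2, and reads could be split between them.

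Markers of immune cells in liver were called at 7 of 8, 4 of 6 and 5 of 8 on 3 lists, against 74.8% of all genes. Of 8 microglia and macrophage markers 7 were called, with summed levels from 56.2 to 170 CPM at ZT3 (mean 86.0) and from 31.9 to 82.0 CPM at ZT9 (mean 58.5). Of 6 Kupffer cell markers, the resident macrophages of the liver, 4 were called, with 101 to 431 CPM at ZT3 and 72.1 to 125 CPM at ZT21. Among these, Clec4f, Vsig4 and Adgre1 peaked at ZT3.25, ZT3.21 and ZT3.17, with ratios of 1.43, 1.43 and 1.71. Cd5l peaked later, at ZT6.05, with a ratio of 1.84. Of 8 lymphocyte markers 5 were called, with 17.7 to 43.7 CPM at ZT0 and 8.05 to 17.1 CPM at ZT15, and Cd79a had a ratio of 3.62 with a peak at ZT5.05. No marker of these 3 lists had a mean of 0 in liver. The part of such cells in the values of Psmb8, Psmb9 and Psmb10 was not tested.

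Of the assembly chaperones in liver 6 of 7 were called, where 74.8% of all genes were, with peaks from ZT4.36 to ZT21.5. Psmd9, a chaperone of the ATPase ring, lay at 39.5, 45.2 and 61.1 CPM at ZT12 and at 27.1, 32.8 and 35.2 CPM at ZT0. The groups were apart, with a ratio of 1.44 (log2 0.52 ± 0.05, peak ZT11.5, adjusted p = 1.38e-14). Of its exonic bases, 25.5% are shared with Gm26745, and without the strand of counting the reads of both cannot be told apart. Psmg3 and Psmg1, chaperones of the core, peaked at ZT17.3 and ZT17.8 with ratios of 1.253 and 1.14, Psmd5 at ZT21.5 with 1.12, Psmg2 at ZT6.91 with 1.20 and Psmd10 at ZT4.36 with 1.11. Psmf1 had a ratio of 1.09 in liver (peak ZT7.26, adjusted p = 0.00942), and its ZT9 and ZT15 groups overlapped.

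In cortex 18 of 48 proteasome genes were called (37.5%), against 43.7% of all genes tested, and 4 had a peak 25% or more above the trough (8.33%), against 19.2%. The median ratio was 1.08, against 1.14 over all genes. Here the 20S core held more calls, 8 of 14 (57.1%), than the 19S particle, 4 of 17 (23.5%), a difference that was not tested. Without ZT0 replicate 1, ZT9 replicate 9 and ZT6 replicate 10, the particle had 11 of 17 (64.7%) and the core 8 of 14, so the order of the shares turned. Of the called genes, 10 peaked between ZT6 and ZT12 and 6 between ZT12 and ZT18. Psmf1, the inhibitor gene, had the smallest p: it lay at 31.2, 39.4 and 42.1 CPM at ZT9 and at 26.7, 29.4 and 33.5 CPM at ZT21. The ranges overlapped slightly, with a ratio of 1.30 (log2 0.38 ± 0.04, n = 78, peak ZT8.58, adjusted p = 2.16e-13). Psma4, an alpha subunit, lay at 44.0, 46.8 and 56.8 CPM at ZT9 and at 37.5, 40.2 and 46.8 CPM at ZT0, a ratio of 1.17 (peak ZT10.1, adjusted p = 1.63e-05). Psmb3, a beta subunit without an active site, lay at 12.4, 15.9 and 20.2 CPM at ZT12 and at 10.4, 11.3 and 19.3 CPM at ZT0. Its groups overlapped over most of their range, with a ratio of 1.27 (adjusted p = 0.00124). Psma5 lay at 8.73, 10.9 and 15.4 CPM at ZT18 and at 6.87, 7.51 and 13.3 CPM at ZT0, with overlap and a ratio of 1.24 (adjusted p = 0.0476). That call was lost without the low-count filter (adjusted p = 0.0748), with the second cycle (0.0506) or the L code of the library name (0.127) as a term, in the first cycle alone (0.302) and with ZT as a factor (0.0922).

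The immunoproteasome genes Psmb9 and Psmb8 had the largest ratios of the cortex, 1.43 (peak ZT5.79, adjusted p = 0.00136) and 1.31 (ZT5.68, adjusted p = 0.00633), at levels of 0.797 to 3.50 CPM for Psmb9 over its highest and lowest groups. The highest library of both was ZT6 replicate 10, with 3.50 CPM of Psmb9 and 6.78 CPM of Psmb8, against group medians of 1.63 and 2.83 CPM. Of 8 microglia and macrophage markers 4 were called in cortex, where 43.7% of all genes were. Their peaks were spread, at ZT4.00 for Cx3cr1, ZT6.98 for Cd68, ZT9.81 for P2ry12 and ZT21.7 for Ptprc. The 8 markers summed to 227 to 423 CPM at ZT9 and 212 to 249 CPM at ZT12, and their part in Psmb8 and Psmb9 was not tested. Without ZT6 replicate 10 and the pair that lacked excitatory neuron markers, a choice made after seeing the data, 27 of 48 members were called, where 52.2% of all genes were, and all 18 stayed called.

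In hypothalamus 8 of 48 were called (16.7%), against 24.3% of all genes, and none had a peak 25% or more above the trough, against 11.7%. Psmf1 again had the smallest p. It lay at 43.7, 47.0 and 52.0 CPM at ZT6 and at 33.9, 38.7 and 42.4 CPM at ZT18. Every ZT6 library was above every ZT18 library, with a ratio of 1.18 (peak ZT8.52, n = 77, adjusted p = 5.03e-09). The other 7 were Psmc3, Psmc2, Psmd4, Psmd11, Psmd5, Psma7 and Psma4, with ratios from 1.06 to 1.16 and peaks from ZT11.2 to ZT16.3. Without the 2 libraries that held pituitary markers 6 were called, and in the first cycle alone, with fewer libraries, 1. The shares of all genes in these fits are not given here, so a change of the members cannot be told from one of all genes.

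In striatum 0 of 48 passed edgeR's quasi-likelihood test, against 5.7% of all genes (4.82% with a peak 25% or more above the trough). At an unadjusted p under 0.05 there were 4, and DESeq2's likelihood ratio test called 2, Psmd11 and Psmf1. Psmf1 lay at 31.3, 34.4 and 45.2 CPM at ZT12, at 36.5 and 35.8 CPM in the 2 libraries of ZT15, and at 33.4, 28.3, 28.9 and 28.6 CPM in the 4 of ZT18. Of the 4 libraries of ZT18, 3 were below all of ZT12 and ZT15, and the fitted ratio was 1.13 (peak ZT10.8, adjusted p = 0.0749). Psmd11 had a ratio of 1.13 (peak ZT16.3, adjusted p = 0.0869), and Psmb9, at 1.39 (peak ZT6.81), an adjusted p of 0.210. Leaving out ZT18 replicate 3 gave 2 calls, and leaving out ZT18 replicate 4 or ZT15 replicate 1 gave 1 each, with no share of all genes given here. The median ratio was 1.06, against 1.18 over all genes tested.

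Across tissues, Psma4, Psma7, Psmc2, Psmd5, Psmd11 and Psmf1 were called in 3 tissues (liver, cortex and hypothalamus), 12 genes in 2 tissues and 21 in 1. In these fits of all libraries used, with no further terms, the 9 called in none were Psmb5, Psmb6, Psmd6, Psmd8, Psmd12, Psmd13, Psme2, Psmg4 and Psmc3ip. The share of all genes called in as many tissues is not given here, so none of these counts has a background beside it. With the length slope as a covariate Psmb6 was called in liver and hypothalamus, and without liver ZT6 replicate 7 Psmd6, Psmd13 and Psme2 were called in liver.

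Whether the rhythm itself differed between tissues was tested as an interaction of tissue with the 24 h terms. Between liver and cortex it differed for 28 of 47 members (59.6%), against 65.3% of all genes tested. Between liver and hypothalamus there were 27 (57.4%), against 61.4%, and between liver and striatum 13 (27.7%), against 42.8%. Psmd11 differed in all 3 pairs, with adjusted p = 2.5e-24, 1.25e-24 and 6.36e-19, in that order. The fitted peak of Psmd11 was at ZT1.45 in liver with a ratio of 1.48, at ZT16.8 in cortex with 1.08 and at ZT13.5 in hypothalamus with 1.06. Psmd14 likewise peaked at ZT1.55 in liver and at ZT12.5 in cortex, with ratios of 1.39 and 1.09 (adjusted p of the difference 1.77e-19), and it differed from hypothalamus (9.05e-14) and striatum (7.25e-07). Psma1, Psmc2 and Psmd9 also differed in all 3 pairs. Between cortex and hypothalamus edgeR's quasi-likelihood test called 0 of 48, against 6.14% of all genes, with 3 at an unadjusted p under 0.05. These were Psmf1 (adjusted p = 0.161), Psmg2 (0.216) and Psme1 (0.226).

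Within a tissue, the level of the 20S genes also moved with a property of the library, the relative level of short and long genes. For each library the slope of log2 level on log2 gene-model length was taken over all genes except the members, relative to the tissue's mean, so that a negative slope means relatively more reads on short genes. It ran from -0.367 to 0.306 in striatum, -0.309 to 0.178 in hypothalamus, -0.374 to 0.0621 in cortex and -0.266 to 0.0540 in liver. The summed CPM of the 14 core genes fell with the slope in striatum (Pearson r = -0.894, Spearman rho = -0.910, n = 60) and hypothalamus (r = -0.895, rho = -0.894, n = 77). It did so in liver as well (r = -0.530, rho = -0.478, n = 76). In cortex r was -0.790 (n = 78) but rho was -0.238 (permutation p = 0.0362, adjusted 0.058), and without the 2 libraries farthest from the median r was -0.348, so the size of that relation rests on them. The permutation p of each r was 1e-05, the smallest that 100000 permutations can give (adjusted 2e-05 over 8 relations). Without the farthest 2 libraries r was -0.884 in striatum, -0.901 in hypothalamus and -0.465 in liver. Within ZT groups r was -0.896 in striatum, -0.915 in hypothalamus, -0.820 in cortex and -0.661 in liver. The 17 genes of the 19S particle gave r = 0.211 in striatum (permutation p = 0.106) and -0.444 in hypothalamus (permutation p = 7e-05, rho = -0.513). In cortex they gave r = -0.585 (permutation p = 0.0002) but rho = -0.162 (permutation p = 0.155). In liver they gave r = 0.276 (permutation p = 0.0126), which was 0.0136 without the farthest 2. For these 17 genes r without the farthest 2 was 0.192 in striatum, -0.597 in hypothalamus and -0.389 in cortex. Their r within ZT groups was 0.266 in striatum, -0.482 in hypothalamus, -0.643 in cortex and 0.359 in liver. Gene-model lengths ran from 871 bases (Psmb5) to 3894 (Psma3) in the core and from 1394 (Psmc5) to 7265 (Psmd1) in the 19S particle. By its definition the slope falls as short genes rise, so a relation with a set of short genes is in part built in. No other gene set of like length was compared, so nothing particular to the core can be read from these values.

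**Figure D5:**
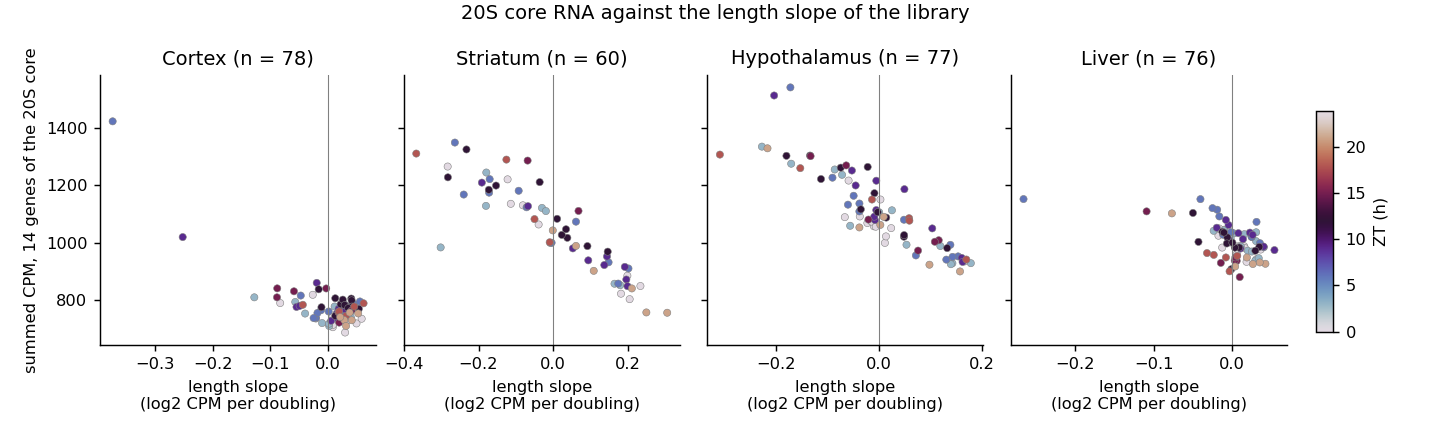
Summed CPM of the 14 genes of the 20S core against the length slope of each library in 4 tissues, coloured by ZT. The sum falls as the slope rises in striatum and hypothalamus (r = -0.894 and -0.895), while in cortex a single library at a slope of -0.374 stands far from the rest.

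With the length slope as a covariate, a fit chosen after seeing the data, every gene already called stayed called and more were added. There were 30 of 48 in cortex (49.2% of all genes), 25 of 48 in hypothalamus (39.9%), 43 of 47 in liver (78.3%) and 5 of 48 in striatum (11.8%), the last being Psma7, Psmb9, Psmc4, Psmd11 and Psmf1. In cortex the 19S particle then had 13 of 17 called and the core 8 of 14, so the order of these shares turned. In striatum the slope had means of 0.156 at ZT21 (n = 6) and -0.138 at ZT18 (n = 4).

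A second harmonic of 12 h was called for 3 of 47 members in liver, against 17.2% of all genes: Psmd11 (ratio 1.11, adjusted p = 0.0133), Psmd14 (1.10, 0.0150) and Psme3 (1.10, 0.0181). In the brain edgeR's quasi-likelihood test called 0 of 48 in each tissue, against 0.332% in cortex, 0.0277% in striatum and 0.0686% in hypothalamus. At an unadjusted p under 0.05 there were 6 in cortex, 0 in hypothalamus and 29 in striatum, where Psmb3 had a ratio of 1.79 (adjusted p = 0.102). The shares of all genes given here are of adjusted calls, so these unadjusted counts have no background beside them. With the length slope in the fit, 3 members of striatum had an unadjusted p under 0.05.

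The 2 cycles were compared at ZT0 to ZT12. There edgeR's quasi-likelihood test called no member in cortex, hypothalamus or liver, against 6.82%, 0% and 0% of all genes. In cortex 4.59% of all genes were called higher and 2.23% lower in the second cycle. At an unadjusted p under 0.05 there were 4, 4 and 1 members in the same order, a threshold at which no share of all genes is given here. Under DESeq2's size factors 1 was called in cortex. In striatum Psmc3ip was called, lower in the second cycle, against 2.92% of all genes called, 2.27% lower and 0.656% higher. It lay at 3.14 ± 0.73 CPM (SD, n = 22) in the first cycle and 2.51 ± 0.76 CPM (n = 26) in the second (log2 -0.46 ± 0.12, adjusted p = 0.0443). Without the libraries that stand apart or have an extreme length slope, none was called there and 11 were called in cortex. The share of all genes in that cortex fit is not given here, so the 11 are not set against a background.

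Levels were also compared between liver and each brain tissue, where the scaling decides most directions. With TMM factors, 28 of 48 members were at least 2-fold higher in liver than in cortex, 22 higher than in striatum and 21 higher than in hypothalamus, against 27.1%, 24.8% and 25.5% of all genes tested. No subunit or regulator gene was lower by that size, against 39.3%, 39.2% and 39% of all genes. Psmc3ip was lower in each pair, a direction fixed by the choice of members, since it passed 1 CPM in the brain alone. On library totals the numbers of higher members were 6, 4 and 3, and those of lower members, Psmc3ip included, 1, 2 and 3. The median over all genes moved from -0.30, -0.30 and -0.27 with TMM to -1.21, -1.35 and -1.38 with totals (log2, cortex, striatum and hypothalamus), and that of the members from 1.12, 0.99 and 0.88 to 0.20, -0.07 and -0.23. With DESeq2's size factors 25, 15 and 13 members were higher. Over the 9 fits of 3 pairs and 3 scalings, 14 members were higher in liver in all and 33 changed sign. For library totals, DESeq2's size factors and these signs, no share of all genes is given here. Those counts of members therefore have no background beside them.

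Psmb9 and Psmb8 were called higher in liver in all 9 fits, with log2 differences of 2.62 to 4.27 and 2.14 to 4.06. On the scale of library totals Psmb9 averaged 13.8 CPM in liver, 2.21 in hypothalamus, 1.91 in striatum and 1.34 in cortex, and Psmb8 23.2, 5.24, 4.06 and 2.64 CPM. Psme2b and Psme4 were called higher in 8 of the 9, with 0.93 to 2.96 and 0.68 to 2.54. Psme4 averaged 137 CPM in liver, 85.6 in cortex, 51.7 in striatum and 51.1 in hypothalamus. By contrast Psmc5, an ATPase subunit, averaged 69.5 CPM in liver and 134 to 159 CPM in the brain, and its TMM-scaled log2 difference lay between -0.09 and 0.00.

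Other genes of the ubiquitin-proteasome system, on a list with 30 of 31 names matched, were called at 22 of 30 in liver, 14 of 30 in cortex, 7 of 30 in hypothalamus and 1 of 30 in striatum. Over all genes tested the shares were 74.8%, 43.7%, 24.3% and 5.7%, so the list lay near the background. Its median ratios were 1.14, 1.08, 1.05 and 1.06. In liver all 5 genes for ubiquitin and its activation and all 5 substrate shuttles were called. The other roles there had 6 of 8 associated factors, 3 of 5 genes of the p97 complex and 2 of 4 of transcriptional control. Of the subunits or chaperones with another symbol 1 of 3 was called. Ubqln1 and Rad23b, shuttles that carry ubiquitinated proteins to the 19S particle, peaked at ZT22.9 and ZT24.0 with ratios of 1.503 and 1.28, and Ubqln4 at ZT18.8 with 1.62. Faf2, a partner of the unfoldase p97, peaked at ZT0.202 with 1.21. In cortex Zfand5, which binds the proteasome, had a ratio of 1.20 and Ufd1, a p97 cofactor, 1.14. In hypothalamus Nfe2l2, a stress transcription factor, had 1.39 (peak ZT16.7). In striatum the called gene was Zfand2a (1.11, peak ZT13.3, adjusted p = 0.0310).

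Genes of MHC class I antigen processing, the pathway fed by the immunoproteasome, were called at 7 of 10 in liver, 7 of 10 in cortex, 1 of 10 in hypothalamus and 0 of 10 in striatum, where 4 had an unadjusted p under 0.05 in edgeR's test. The shares of all genes were 74.8%, 43.7%, 24.3% and 5.7% in the same order. Tap1, a subunit of the peptide transporter, had a ratio of 1.54 in liver (peak ZT4.01), 1.52 in cortex (ZT5.80) and 1.22 in hypothalamus. Irf1, a transcription factor of the interferon response, had 1.47 in liver (ZT3.95) and 1.16 in cortex. Tapbp, which loads peptides, had 1.32 in liver (ZT8.03). Psmb8 and Psmb9 lie beside Tap1 on chromosome 17, and 5.79% of the exonic bases of Psmb9 are shared with it. Among other members, Psmb8 shares 14.7% with Gm20496, Psmb5 12.1% with Mir686, Psmb7 11.8% with Nek6 and Psmc3ip 21.2% with Mlx. Without the strand of counting, reads on these bases cannot be told apart.

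The promoters of 41 members were searched for 9 motifs on both strands, against 32851 RefSeq promoters of the same 250 bases. The E-box CACGTG was found in 4 (9.76%, all promoters 6.02%), namely Psma4, Psmb10, Psmd9 and Psme3. CCAAT was found in 14 (34.1%, all 33.8%) and the antioxidant response core TGACNNNGC in 5 (12.2%, all 10.2%). The heat shock pair GAANNTTC was in 3 (7.32%, all 6.69%), the ROR element TAGGTCA in 2 (4.88%, all 2.23%) and the interferon-stimulated response element in 3 (7.32%, all 2.98%). TTCNNNGAA, the interferon-gamma activated site, was in 2 (4.88%, all 7.02%), Psmb8 and Psmg1. The D-box TTATGTAA and the cAMP element TGACGTCA were in 0, against 0.819% and 1.55% of all promoters. Letters of one motif can overlap those of another, and a match is a description of these windows.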

How the data were processed

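mRNA-seq libraries of 4 tissues were deposited as tables of gene counts and of FPKM. Counts are whole reads per gene that the authors deposited, not normalized; FPKM are the authors' values per length and depth, as deposited. GRCm38, mm10, HTSeq 0.10.0 and STAR 2.7.3a stand in the submitters' processing notes. Of the annotation release and the strand of counting nothing was given in the sources used here. Total RNA came from flash-frozen tissue by a miRNeasy kit, per the labels' protocols.

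Groups came from the labels. Counts were fitted with edgeR 4.0.16 in R 4.3.3 (filterByExpr by ZT group, TMM factors, quasi-likelihood F test of a cosine and a sine of 24 h) for each tissue, with Benjamini-Hochberg adjustment over all genes tested: 16258 in liver, 19564 in cortex, 20407 in hypothalamus and 21637 in striatum. Interaction, 12 h, cycle and level fits used the same test, and DESeq2 1.42.0 was an alternative. Ratios are fitted peak over trough, on the log2 scale with delta-method errors. The length slope used genes of at least 5 CPM with a pseudocount of 0.5, and gene-model lengths recovered from counts and FPKM. Exon overlaps came from an annotation of GRCm38, and promoter sequences from RefSeq (GRCm38.p6), which matched 41 of 48 members and lacked 7. Tests were tried on simulated data.

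The members and lists were chosen with earlier results of these data known. Named genes were the 6 called members of largest ratio in each tissue, the active-site, activator and inhibitor genes, Psmd14 and Psmc3ip, the 4 smallest p of each further comparison, the 6 largest level differences and the 4 smallest p of each other list. The text gives values for part of these, and adds Psmc2, Psmd3, Psmd4 and further members after their values were seen. Mouse codes pair libraries across tissues, but deviations of the same mouse were nearly unrelated (mean r 0.0456 for liver with cortex, 0.0343 with striatum and 0.0271 with hypothalamus, and 0.0671 for cortex with hypothalamus), and the mouse as a block moved no count by over 1.5 times. Replicate numbers name libraries and do not pair them. Genes with pseudogenes or copies, such as Psme2 and Psme2b, are uncertain where reads are shared. Alternatives tried were other scalings, filters, tests, cycles, blocks, the L code of the library name and the length slope. Single libraries were left out only in striatum (each of ZT15 and ZT18) and in liver (ZT6 replicate 7). Sets of libraries that stand apart were left out as well.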

Additional observations from a re-analysis of the deposited data

Results flagged for a closer look

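Of 46 groups of 4 to 10 libraries checked, 5 held a library far from the others, and chance flags about 1 group in 20. Psme4 in striatum at ZT21 was 124 CPM in replicate 3, the library with cerebellar markers, where the nearest other library had 75.5 CPM. Psmf1 in striatum at ZT3 was 15.0 CPM in replicate 5, the library of lowest total, against 27.4 CPM in the nearest. In liver at ZT21, replicate 2 was highest for both Psmb5, at 42.7 CPM (nearest 35.1), and Psme1, at 85.5 CPM (nearest 59.6). Psme2 in liver at ZT15 was 22.7 CPM in replicate 3 (nearest 16.97).

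A difference of rhythm between tissues, by the interaction test, flagged Psmd11 against cortex (adjusted p = 2.5e-24), striatum (6.36e-19) and hypothalamus (1.25e-24), with a ratio of 1.48 in liver and of 1.13 or less in the brain. Psmd14 was flagged against the same tissues (1.77e-19, 7.25e-07 and 9.05e-14), as was Psmc2 (9.08e-14, 3.62e-07 and 1.32e-12). Psma1 was flagged against cortex (9.5e-16) and hypothalamus (4.86e-12), and Psmd9 against striatum (1.73e-06).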

How the results depend on the processing

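The 31 counts of members kept their side and size (within 1.5 times) in 99 of 128 alternative fits, and single genes kept direction and call in 914, lost the call in 33, gained it in 28 and moved their highest time by more than 6 h in 2. With the length slope as a covariate (added after seeing the data), calls of the 24 h rhythm were 30 in cortex, 5 in striatum and 25 in hypothalamus, those between cycles 10 in cortex and 3 in striatum, those of the 12 h harmonic 6 in liver, and those of the rhythm difference 31 for liver with striatum and 3 for cortex with hypothalamus. With ZT as a factor, the 24 h calls were 11 in cortex, 1 in striatum and 1 in hypothalamus; the highest group of Psma5 in cortex (range 0.49, log2, adjusted p = 0.0922) and of Psma4 in hypothalamus (0.21, adjusted p = 0.229) then lay more than 6 h from the fitted peak, and neither was called. In striatum the 24 h calls were 1 without the low-count filter, 1 without the libraries that stand apart and 2 with DESeq2. They were 0 to 2 with a single library of ZT15 or ZT18 left out. In hypothalamus they were 5 without the filter, 1 in the first cycle alone and 5 with the L code. Between cycles, DESeq2's size factors gave 1 in cortex, and leaving out the libraries that stand apart or have an extreme length slope gave 11 in cortex and 0 in striatum. Members past 2-fold in level were 7, 6 and 6 on library totals (cortex, striatum, hypothalamus) and 14 with DESeq2's size factors in hypothalamus. Of these fits, only the 24 h fits with the length slope have shares of all genes beside them, given above. For the others, a change of the members cannot be told from one of all genes. The causes of these changes were not tested.

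The replicate number as a block gave 18 calls of 24 h in hypothalamus, 16 in cortex and 36 in liver, and 30 of the 12 h harmonic in striatum, where 24.1% of all genes were then called. Same-numbered libraries had mean correlations of 0.006 in liver, 0.156 in hypothalamus, 0.084 in cortex and 0.079 in striatum, and correlated best with their own number in 6 of 76, 15 of 77, 18 of 78 and 10 of 60 libraries, so the numbers were not taken as a pairing. Groups of 2 and 4 libraries in striatum limit its estimates at ZT15 and ZT18.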
